A study of Mus musculus with 12 samples.

Results

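The genes described here are 8 that encode enzymes of the methionine cycle, of transsulfuration, of cysteine use and of mitochondrial sulfide oxidation: *Mat2a*, *Ahcy*, *Cbs*, *Cth*, *Mpst*, *Cdo1*, *Sqor* and *Ethe1*. They were taken by symbol, as the rows of the expression table whose gene name is on this list, and are 8 of the 54532 genes in the table. The samples were colonoids, organoids grown from colonic epithelial stem cells of healthy mice 8 to 12 weeks old, and the question was how loss of epithelial heme oxygenase-1 (gene *Hmox1*), the enzyme that degrades heme, alters the response to heme. Messenger RNA was purified on poly-T beads and sequenced, with 3 libraries for each of 4 groups and 12 in all.

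Control colonoids came from C57BL/6 mice and carried floxed *Hmox1* alleles (*Hmox1* fl/fl) with no Cre. They received vehicle, or 200 μM hemin (an oxidized, chloride-bound heme) over 24 hours. Colonoids labelled KO (*Hmox1* ΔIEC) combined the floxed alleles with Vil1-Cre, which drives recombination in the intestinal epithelium, and received vehicle or the same hemin exposure. Among the hemin-treated libraries labelled KO, replicate 3 has its genotype written as floxed alleles with Vil1-Cre, while all others labelled KO are written as KO with Vil1-Cre. The sources used here do not say how many mice or colonoid lines stand behind the 3 libraries of a group, so the p-values measure only the spread between these libraries, which may be technical. Libraries held between 11648801 and 25101868 fragments on genes, and the hemin-treated controls were the smallest, with 11648801, 11859124 and 11935604.

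Levels are in FPKM, fragments scaled by gene length and library size, on a scale that the deposited table had already adjusted between libraries. A difference is a log2 fold change between group means of log2(FPKM + 1), which understates the change of a gene near or under 1 FPKM. A gene is said to rise or fall where its adjusted p from limma is under 0.05, and is called where its absolute log2 fold change is also above 1. The libraries of the 2 groups compared did not overlap for 52.4% of all genes tested with hemin in controls. This share was 74.4% with hemin in those labelled KO, and between genotypes 57.5% with vehicle and 40.9% with hemin. Groups said below not to overlap can be set beside these shares. All 8 genes passed the filter of at least 1 FPKM in at least 3 libraries. *Cbs* passed it through its vehicle-treated libraries alone, since every hemin-treated library was under 1 FPKM.

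*Hmox1* is given before the other genes, as a check of the labels. Under vehicle it stood at 7.62, 6.85 and 7.90 FPKM in controls and at 3.14, 2.11 and 2.31 FPKM in the libraries labelled KO. Under hemin it stood at 503, 483 and 382 FPKM in controls and at 1279, 1393 and 1271 FPKM in the libraries labelled KO. The difference under hemin (log2 fold change 1.53, adjusted p = 3.3e-06) goes against the KO label, and under vehicle it follows the label (−1.27, adjusted p = 1.2e-05). Each direction given below between genotypes is therefore between control libraries and libraries labelled KO. The paper describes *Hmox1* as deleted in the intestinal epithelium of the KO mice, with RT-qPCR on sorted colonic epithelial cells. FPKM covers the whole gene, and a deleted part was not read apart from the rest.

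As background, the methionine cycle makes S-adenosylmethionine, the methyl donor, and returns homocysteine, which transsulfuration converts through cystathionine to cysteine. CBS, which opens transsulfuration, is itself a heme protein, and both CBS and CTH can also release hydrogen sulfide. Colonocytes are exposed to sulfide from gut bacteria and oxidize it in mitochondria, where SQOR passes its electrons to ubiquinone and ETHE1, thiosulfate sulfurtransferase (TST) and sulfite oxidase (SUOX) carry the sulfur on to thiosulfate and sulfate.

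In vehicle-treated controls the order of mean FPKM was *Ethe1* (157), *Sqor* (114), *Ahcy* (102), *Mat2a* (64.2), *Mpst* (36.5), *Cth* (17.2), *Cbs* (5.42) and *Cdo1* (4.39). Neighbours in this order did not overlap in their 3 libraries. The genes of sulfide oxidation thus had the highest levels and the genes that open transsulfuration and cysteine oxidation the lowest. The order differed by group: with vehicle in colonoids labelled KO the highest was *Ahcy* (131 FPKM), and *Sqor* (52.9 FPKM) came after *Mat2a* (69.6 FPKM) and *Ethe1* (64.5 FPKM). With hemin, *Sqor* had the highest level of the 8 in controls (200 FPKM) and in colonoids labelled KO (143 FPKM), and *Cbs* the lowest in both (0.772 and 0.0921 FPKM).

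**Figure D1:**
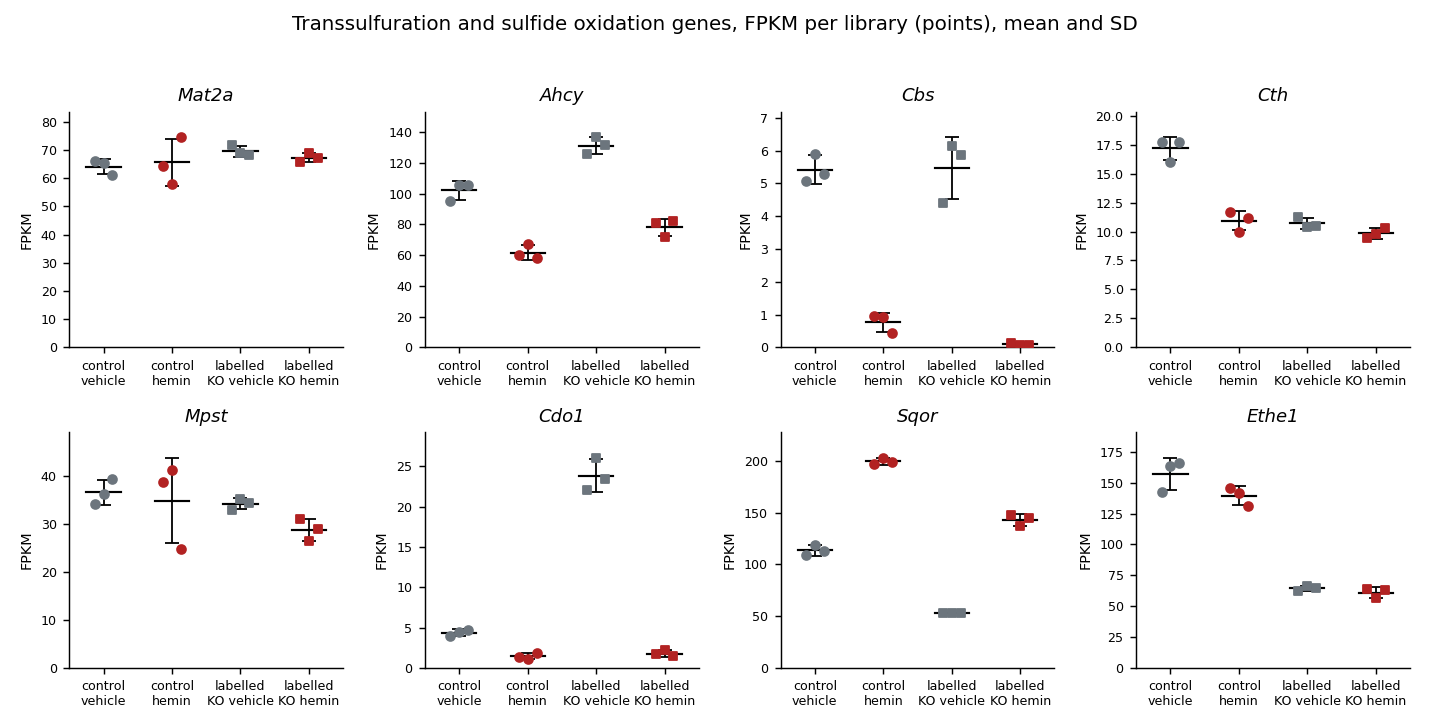
FPKM of the 8 genes in each library (vertical axes, linear, from 0) for the 4 groups (horizontal axes), with circles for control, squares for labelled KO, grey for vehicle and red for hemin. Lines and bars give the mean and SD of 3 libraries. *Cbs* fell with hemin to 0.0921 FPKM in colonoids labelled KO, *Cdo1* was highest with vehicle in those labelled KO (23.8 FPKM), and *Ethe1* separated by genotype.

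Markers were read in the same libraries. Of 7 epithelial markers all were present, led by *Krt8* (2317 to 4062 FPKM), with *Epcam* between 758 and 1595 FPKM. Leukocyte markers summed to at most 5.42 FPKM (6 genes, led by *Cd68*), fibroblast markers to at most 0.885 FPKM (6 genes, led by *Vim*, with *Col1a2* and *Dcn* at 0 in every library) and endothelial markers to at most 0.614 FPKM (4 genes, led by *Vwf*). A list of 4 hepatocyte genes, included because *Cbs* and *Cdo1* are abundant in liver, summed to between 1.57 and 11.4 FPKM and was led by *Ttr*, with *Alb* at no more than 1.70 FPKM. In these lists *Cd3e*, *Kdr* and *Serpina1a* were at 3 fragments or fewer in every library. The libraries thus carried the epithelial markers of their label and little RNA of the other tissues listed. The 7 epithelial markers also moved between groups: they summed to 8036, 8782 and 8972 FPKM with vehicle and 8791, 9843 and 7827 FPKM with hemin in controls, and to 5604, 5591 and 5634 FPKM with vehicle and 8468, 7261 and 8230 FPKM with hemin in those labelled KO. *Cdx2* had means of 202 and 48.7 FPKM with vehicle in controls and those labelled KO. With hemin, 3 rose and 0 fell in controls, and 6 rose and 1 fell in those labelled KO (medians −0.02 and 0.74), *Epcam* among those that rose in both (log2 fold changes 0.78 and 0.98). Of all genes tested, 23.2% rose and 26.7% fell with hemin in controls, and 29.9% and 30.4% in those labelled KO.

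Markers of epithelial cell types differed between the groups. The 5 enteroendocrine markers, led by *Chgb* in controls and by *Pyy* in those labelled KO, summed to 34.3, 40.6 and 42.3 FPKM in vehicle-treated controls and to 541, 567 and 539 FPKM in vehicle-treated colonoids labelled KO. With hemin they summed to 33.7, 30.0 and 23.8 FPKM in controls and to 478, 385 and 449 FPKM in those labelled KO. None of these 5 was at 0 throughout. *Pyy* made up most of the sums in those labelled KO (means 403 FPKM with vehicle and 340 FPKM with hemin). Between genotypes all 5 were higher in those labelled KO with vehicle and 3 with hemin, where *Gcg* had means of 4.06 FPKM in controls and 2.79 FPKM in those labelled KO (adjusted p = 0.13). Of all genes tested, 17.4% were higher and 16.8% lower in those labelled KO with vehicle, and 19.7% and 14.7% with hemin.

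The 6 goblet markers, led by *Tff3*, summed to 1357, 1646 and 1569 FPKM with vehicle and 1293, 1320 and 926 FPKM with hemin in controls. In colonoids labelled KO they summed to 1529, 1462 and 1492 FPKM with vehicle and 487, 412 and 452 FPKM with hemin. The lowest goblet sums were thus in the hemin-treated libraries labelled KO, while *Zg16* of this list had its lowest mean with vehicle in those labelled KO (171 FPKM, and 185 FPKM with hemin). The 7 colonocyte markers, led by *Guca2a* in controls and by *Aqp8* in those labelled KO, summed to 815, 936 and 911 FPKM with vehicle and 1214, 1189 and 1203 FPKM with hemin in controls, and to 819, 871 and 849 FPKM with vehicle and 1585, 1086 and 1405 FPKM with hemin in those labelled KO. Their members did not move together: 3 rose and 2 fell with hemin in controls, and 2 (*Krt20* and *Cdhr5*) rose and 4 fell in those labelled KO (median −0.73, with *Car4* at −3.43). Between genotypes, 4 were higher and 3 lower in those labelled KO with vehicle, and 4 and 2 with hemin (medians 1.32 and 0.36). With vehicle, *Guca2a* had means of 499 FPKM in controls and 84.3 FPKM in those labelled KO, and *Aqp8* of 44.0 and 426 FPKM. The 5 stem cell markers, led by *Axin2* and with *Olfm4* at 3 fragments or fewer in every library, summed to 13.2, 11.5 and 12.8 FPKM with vehicle and 6.20, 6.74 and 4.81 FPKM with hemin in controls. In those labelled KO the stem cell sums were 26.7, 28.8 and 27.2 FPKM with vehicle and 9.19, 11.05 and 11.9 FPKM with hemin. Of the 4 stem cell markers tested, 3 were higher and 0 lower in those labelled KO with vehicle, and 2 and 1 with hemin. *Lgr5* had means of 2.45 FPKM in controls and 2.36 FPKM in those labelled KO with vehicle, and of 0.781 and 0.277 FPKM with hemin. The counts of colonocyte and stem cell markers can be set beside the shares of all genes given above for the same comparisons. The part of these shifts in the results below was not tested, and in bulk RNA fewer cells of a type and less RNA per cell cannot be told apart.

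Some libraries stood apart. The noncoding gene *Gm23935* held 16.8% of the FPKM sum in replicate 1 of vehicle-treated controls, 29.0% in replicate 1 of hemin-treated controls and 21.0% in replicate 2 labelled KO with hemin, against at most 2.81% in the others. Replicate 3 of hemin-treated controls had the fewest genes above 0 of the 12 libraries (17795, with 19294 or more in the others) and the largest mitochondrial share of fragments (4.92%). Without it 4726 genes in place of 3031 had an adjusted p under 0.05 for the interaction.

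The methionine cycle is represented by *Mat2a*, which makes S-adenosylmethionine, and *Ahcy*, which cleaves S-adenosylhomocysteine to homocysteine and adenosine. *Ahcy* (chromosome 2, 155059310 to 155074497) stood at 95.1, 105 and 106 FPKM with vehicle and 59.9, 67.1 and 58.3 FPKM with hemin in controls. *Ahcy* in libraries labelled KO stood at 126, 137 and 132 FPKM with vehicle and 80.8, 72.0 and 82.1 FPKM with hemin. In each genotype every hemin-treated library was under every vehicle-treated one, and under each treatment every library labelled KO was above every control. *Ahcy* fell with hemin by a similar amount in controls (log2 fold change −0.72, SE 0.08, adjusted p = 2.2e-05) and in colonoids labelled KO (−0.74, SE 0.08, adjusted p = 1.1e-05), with an interaction of −0.02 (95% confidence interval −0.26 to 0.22). It was higher in colonoids labelled KO under vehicle (0.36, adjusted p = 0.0039) and under hemin (0.34, adjusted p = 0.0058). Under TPM these differences were 0.51 and 0.34 and missed the threshold (adjusted p = 0.10 and 0.31). Over all alternatives the adjusted p ran from 0.0017 to 0.10 with vehicle and from 0.0028 to 0.31 with hemin.

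*Mat2a* (chromosome 6, 72432799 to 72439558) ranged from 57.9 to 74.6 FPKM over the 12 libraries. Its group means were 64.2 ± 2.66 FPKM (SD, n = 3) for vehicle and 65.6 ± 8.40 FPKM for hemin in controls. For libraries labelled KO they were 69.6 ± 1.96 and 67.3 ± 1.58 FPKM. With vehicle every library labelled KO was above every control, in a comparison where 57.5% of all genes did not overlap, and the other groups overlapped. None of the 5 comparisons passed, with log2 fold changes between −0.07 and 0.12. The hemin difference in those labelled KO was −0.05 (adjusted p = 0.64, and 0.014 to 0.85 over its alternatives). It passed under TPM without *Gm23935* alone (−0.27, adjusted p = 0.014). The noncoding gene *Particl* overlaps exons of *Mat2a* on the opposite strand and stood between 1.48 and 2.60 FPKM. Whether counting used strand is not given in the sources used here, so fragments of such a pair cannot be told apart.

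Transsulfuration runs through *Cbs*, which joins homocysteine to serine, and *Cth*, which splits cystathionine to cysteine. *Cbs* (chromosome 17, 31612623 to 31637199) stood at 5.06, 5.90 and 5.29 FPKM with vehicle in controls and at 4.39, 6.14 and 5.86 FPKM with vehicle in colonoids labelled KO. With hemin it stood at 0.944, 0.936 and 0.435 FPKM in controls and at 0.125, 0.0890 and 0.0625 FPKM in those labelled KO. All hemin-treated libraries were under all vehicle-treated ones, and the hemin-treated libraries of the 2 genotypes did not overlap, while the vehicle-treated ones did.

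*Cbs* fell with hemin in controls (log2 fold change −1.87, SE 0.14, adjusted p = 1.3e-06) and in colonoids labelled KO (−2.56, SE 0.14, adjusted p = 7.0e-08). In FPKM, the hemin-treated mean was 14.2% of the vehicle-treated mean in controls and 1.68% in those labelled KO. The value in those labelled KO rests on 6, 7 and 3 fragments, 16 in all, against 925 with vehicle. The ratio of vehicle to hemin was 59.9 there, with a 95% exact interval of 36.7 to 105, and 7.04 (5.66 to 8.85) in controls, where 90 fragments stood against 859. These intervals cover counting error only.

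With vehicle, *Cbs* did not differ between genotypes beyond its spread (log2 fold change 0.00, 95% confidence interval −0.30 to 0.30). With hemin it was lower in colonoids labelled KO (−0.68, SE 0.14, adjusted p = 0.0025), and this difference was −2.13 with a pseudocount of 0.1 and −2.92 with limma-voom on fragments (adjusted p from 7.6e-05 to 0.018 over its alternatives). The interaction was −0.69 (adjusted p = 0.025), and it was −2.13 with a pseudocount of 0.1, −1.39 under TPM, −1.42 under TPM without *Gm23935* and −2.92 with limma-voom (adjusted p = 0.0020, 0.012, 0.0044 and 0.0028). It missed the threshold with no filter on low values (adjusted p = 0.062) and without replicate 1 or 3 of vehicle-treated controls (0.057 and 0.055), replicate 1 or 2 of hemin-treated controls (0.056 and 0.051), replicate 2 or 3 labelled KO with vehicle (0.067 and 0.066) or replicate 3 labelled KO with hemin (0.056). Over its alternatives the adjusted p ran from 0.0020 to 0.067.

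*Cth* (chromosome 3, 157894248 to 157925077) stood at 17.7, 16.0 and 17.7 FPKM with vehicle and 11.7, 10.0 and 11.2 FPKM with hemin in controls. *Cth* in libraries labelled KO stood at 11.3, 10.4 and 10.5 FPKM with vehicle and 9.41, 9.79 and 10.3 FPKM with hemin. The vehicle-treated controls were thus above the other 9 libraries, which spanned 9.41 to 11.7 FPKM. *Cth* fell with hemin in controls (log2 fold change −0.61, SE 0.07, adjusted p = 3.8e-05) and was lower in colonoids labelled KO under vehicle (−0.63, SE 0.07, adjusted p = 3.7e-05). Its hemin difference in those labelled KO was −0.11 (adjusted p = 0.20, with 0.034 after rescaling to TPM and 0.0021 to 0.45 over its alternatives). The interaction was 0.49 (adjusted p = 0.0044, with 0.37 and an adjusted p of 0.42 after rescaling to TPM and at least 0.0030 over its alternatives). Under hemin the genotype difference was −0.14 (adjusted p = 0.16), which passed without replicate 2 of hemin-treated controls (adjusted p = 0.047, and up to 0.64 in other alternatives).

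Cysteine is oxidized by *Cdo1*, cysteine dioxygenase, toward taurine and sulfate, and its keto acid 3-mercaptopyruvate is a substrate of *Mpst*, which hands on the sulfur as a persulfide. *Cdo1* (chromosome 18, 46713205 to 46728342) stood at 4.002, 4.40 and 4.76 FPKM with vehicle and 1.32, 1.16 and 1.85 FPKM with hemin in controls. *Cdo1* in libraries labelled KO stood at 22.0, 26.1 and 23.4 FPKM with vehicle and 1.68, 2.22 and 1.41 FPKM with hemin. The vehicle-treated libraries labelled KO were above all others, and the hemin-treated libraries of the 2 genotypes overlapped.

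With vehicle *Cdo1* was 5.44-fold higher in FPKM in colonoids labelled KO (log2 fold change 2.20, SE 0.13, adjusted p = 2.0e-07). It fell with hemin in controls (−1.15, SE 0.13, adjusted p = 2.8e-05) and further in those labelled KO (−3.17, SE 0.13, adjusted p = 8.3e-09), where the hemin-treated mean was 7.43% of the vehicle-treated mean. The interaction was −2.02 (SE 0.18, adjusted p = 2.4e-05), and under hemin the genotypes differed by 0.18 (95% confidence interval −0.10 to 0.46, adjusted p = 0.31). Hemin-treated libraries held 21 to 80 *Cdo1* fragments each. Other sums were also highest in the vehicle-treated libraries labelled KO, among them those of the enteroendocrine and stem cell markers given above. The 4 hepatocyte genes summed to 11.4, 10.4 and 11.02 FPKM there, to 6.58, 6.50 and 6.19 FPKM with hemin in those labelled KO, and to 3.27, 1.90 and 1.57 FPKM with vehicle and 4.96, 4.42 and 4.71 FPKM with hemin in controls. Members of these lists did not all follow their sums. *Ttr* (mean 8.71 FPKM) and *Alb* (1.32 FPKM) were highest there, while *Apoa2* was lowest there (0.885 FPKM, against 1.19 to 1.86 FPKM in the other groups). *Lgr5* of the stem cell list was not highest there either. The part of these markers in the *Cdo1* difference was not tested.

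*Mpst* (chromosome 15, 78406416 to 78414013) stood at 34.1, 36.1 and 39.4 FPKM with vehicle and 38.7, 41.2 and 24.6 FPKM with hemin in controls. *Mpst* in libraries labelled KO stood at 32.9, 35.2 and 34.4 FPKM with vehicle and 31.0, 26.4 and 28.9 FPKM with hemin. Replicate 3 of hemin-treated controls was the lowest of the 12 libraries, and the other hemin-treated controls were among the highest. None of the 5 comparisons passed, with log2 fold changes between −0.24 and −0.09. Without that library the genotype difference under hemin was −0.46 (adjusted p = 7.9e-04) and the interaction −0.37 (adjusted p = 0.018), where other alternatives reached 0.63 and 0.98. The hemin difference in those labelled KO (−0.24, adjusted p = 0.20) had groups that did not overlap, as did 74.4% of all genes in this comparison, and it passed after rescaling to TPM (adjusted p = 0.035) and with only these groups fitted (0.012), within a range of 0.012 to 0.40 over its alternatives.

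Sulfide oxidation is represented by *Sqor*, sulfide quinone oxidoreductase, and *Ethe1*, persulfide dioxygenase. *Sqor* (chromosome 2, 122765237 to 122809569) stood at 109, 119 and 113 FPKM with vehicle and 197, 203 and 199 FPKM with hemin in controls. *Sqor* in libraries labelled KO stood at 53.2, 52.8 and 52.8 FPKM with vehicle and 148, 137 and 145 FPKM with hemin. No pair of groups overlapped, and the order from low to high was labelled KO with vehicle, control with vehicle, labelled KO with hemin and control with hemin.

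*Sqor* alone of the 8 rose with hemin, in controls (log2 fold change 0.81, SE 0.05, adjusted p = 6.0e-07) and in colonoids labelled KO (1.42, SE 0.05, adjusted p = 4.8e-09), and the interaction was 0.61 (SE 0.07, adjusted p = 2.0e-04). It was lower in colonoids labelled KO with vehicle (−1.09, SE 0.05, adjusted p = 5.3e-08) and with hemin (−0.48, SE 0.05, adjusted p = 4.0e-05). In FPKM the hemin-treated mean was 1.76-fold the vehicle-treated mean in controls and 2.70-fold in those labelled KO. Under TPM the genotype difference with hemin was −0.48 and the interaction 0.47, and both missed the threshold (adjusted p = 0.10 and 0.37, with lowest values over the alternatives of 1.4e-05 and 1.1e-04). With vehicle the difference under TPM was −0.95 (adjusted p = 0.0019, the highest over its alternatives) and so no longer called. The sum of the colonocyte markers was higher with hemin in both genotypes, although 4 of the 7 fell in those labelled KO, and their part in the *Sqor* difference was not tested.

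*Ethe1* (chromosome 7, 24587543 to 24608925) stood at 142, 164 and 166 FPKM with vehicle and 146, 142 and 131 FPKM with hemin in controls. *Ethe1* in libraries labelled KO stood at 62.5, 66.0 and 64.9 FPKM with vehicle and 64.0, 56.2 and 62.7 FPKM with hemin. The libraries of each genotype overlapped across treatments, and every library labelled KO was under every control. *Ethe1* was lower in colonoids labelled KO with vehicle (log2 fold change −1.27, SE 0.08, adjusted p = 2.8e-07) and with hemin (−1.18, SE 0.08, adjusted p = 6.0e-07), and the interaction was 0.09 (95% confidence interval −0.15 to 0.33). Its hemin differences were −0.17 in controls (adjusted p = 0.089, with 0.023 without replicate 1 of vehicle-treated controls and 0.014 to 0.26 over its alternatives) and −0.08 in those labelled KO (adjusted p = 0.39, with 0.0069 to 0.82 over its alternatives).

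**Figure D2:**
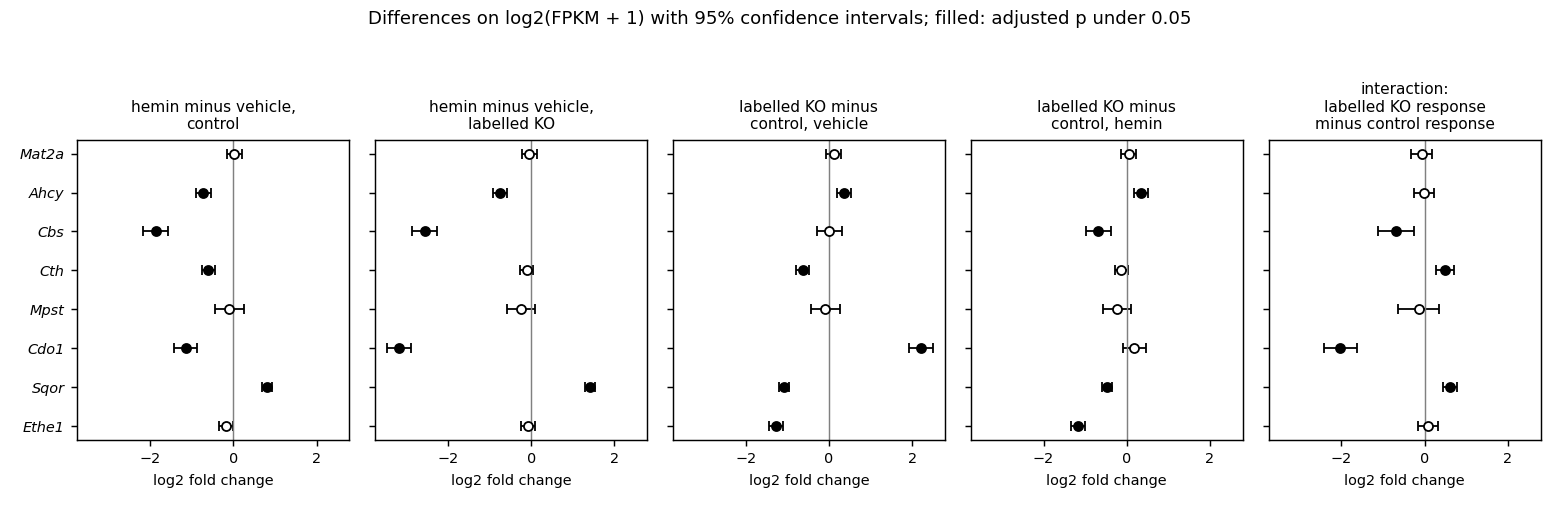
Log2 fold changes of the 8 genes on log2(FPKM + 1) (horizontal axes) in the 5 comparisons, with 95% confidence intervals from limma. Filled points have an adjusted p under 0.05. *Cbs* and *Cdo1* lie to the left in both comparisons of hemin with vehicle and *Sqor* to the right, and *Ethe1* differs between genotypes under both treatments.

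Counts over the 8 genes are set beside the share of all 12740 genes tested. With hemin in controls, 1 of 8 rose (23.2% of all genes) and 4 fell (26.7%), and 2, *Cbs* and *Cdo1*, were called (8.11%). With hemin in colonoids labelled KO, 1 rose (29.9%) and 3 fell (30.4%), and 3 were called (12.9%), namely *Cbs*, *Cdo1* and *Sqor*. With vehicle, 2 were higher (17.4%) and 3 lower (16.8%) in colonoids labelled KO, and 3 were called (6.8%), namely *Cdo1*, *Sqor* and *Ethe1*. With hemin, 1 was higher (19.7%) and 3 lower (14.7%) in those labelled KO, and *Ethe1* alone was called (6.01%).

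For the interaction, 2 genes were higher (13.3%) and 2 lower (10.5%), and *Cdo1* alone was called (5.13%). As a median, the log2 fold change over the 8 was −0.39 with hemin in controls and −0.18 with hemin in those labelled KO, where the median of all genes was −0.01 and 0.00. Between genotypes it was −0.04 with vehicle and −0.19 with hemin, where that of all genes was 0.02 and 0.04. For the interaction it was −0.05 against 0.02. These comparisons share groups of libraries, so their counts are not independent of each other.

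Other genes of the pathway were read from lists, whose counts can be set beside the shares of all genes given above for the same comparisons. Of 12 other genes of the methionine cycle 9 were tested, and *Mat1a*, the liver counterpart of *Mat2a*, was at 0 in every library. Of these 9, 2 rose and 3 fell with hemin in controls, and 3 rose and 4 fell with hemin in colonoids labelled KO (medians −0.05 and −0.13). *Mtr*, methionine synthase, fell in both (log2 fold changes −0.53 and −0.60, adjusted p = 3.1e-04 and 8.9e-05). *Gnmt*, which uses S-adenosylmethionine to methylate glycine, rose in controls (0.75, adjusted p = 0.0089) and in those labelled KO (0.61, adjusted p = 0.020, from 0.0057 to 0.10 over 14 alternatives, of which 7 missed the threshold). It held at most 33 fragments in a library and passed the filter through hemin-treated libraries alone, the groups in which it is higher, since every vehicle-treated library was at most at 0.672 FPKM. Among the 7 were those without replicate 3 labelled KO with vehicle (0.53, adjusted p = 0.070) and without replicate 1 or 3 labelled KO with hemin (0.47 and 0.57, adjusted p = 0.084 and 0.059). Between genotypes, 3 were higher and 2 lower in those labelled KO with vehicle, and 2 were higher and 2 lower with hemin (medians 0.17 and 0.15), and for the interaction 1 was higher and 2 were lower. *Ahcyl1*, a relative of *Ahcy* that lacks its hydrolase role, stood at 32.2, 30.9 and 31.7 FPKM with vehicle and 26.8, 30.1 and 35.1 FPKM with hemin in controls, and at 40.5, 40.8 and 40.6 FPKM with vehicle and 51.0, 49.6 and 51.8 FPKM with hemin in those labelled KO. It was higher in those labelled KO under hemin (0.72, adjusted p = 4.2e-05). *Ahcyl2*, another relative of *Ahcy*, was higher in those labelled KO with vehicle (0.59, adjusted p = 5.2e-05), and *Mat2b*, the regulatory partner of *Mat2a*, fell with hemin in those labelled KO (−0.25, adjusted p = 0.0042). With 1 library left out, 1 to 3 of this list rose and 3 to 4 fell with hemin in controls, and 1 to 2 rose in those labelled KO. Between genotypes 2 to 3 were higher with vehicle and 1 to 3 with hemin, and for the interaction 0 to 2 were higher and 0 to 2 lower. *Ahcyl1*, the gene higher there (0.36, adjusted p = 0.040, from 6.5e-04 to 0.76 over its alternatives), missed the threshold without 11 of the 12 libraries. After rescaling to TPM the counts of this list in limma were 1 up and 3 down with hemin in controls, 0 and 4 with hemin in those labelled KO (0 and 6 under TPM without *Gm23935*), 1 and 1 between genotypes under each treatment, and 0 and 0 for the interaction.

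All 9 genes of methionine salvage and polyamine synthesis were tested. With hemin 1 rose and 4 fell in controls, and 0 rose and 4 fell in colonoids labelled KO (medians −0.32 and −0.37). Between genotypes, 1 was higher and 0 were lower in those labelled KO with vehicle, and 3 were higher and 1 lower with hemin (medians 0.09 and 0.21). *Srm*, spermidine synthase, stood at 31.4, 32.0 and 31.6 FPKM with vehicle and 10.1, 17.7 and 13.01 FPKM with hemin in controls. *Srm* in libraries labelled KO stood at 42.5, 45.5 and 45.8 FPKM with vehicle and 16.9, 18.8 and 19.3 FPKM with hemin. It fell with hemin in both genotypes (log2 fold changes −1.19 and −1.24, adjusted p = 5.7e-05 and 2.7e-05). *Apip*, a dehydratase of methionine salvage, had an interaction of −0.98 (adjusted p = 0.0056), the 1 gene of this list to pass there, where *Amd1* and *Odc1* also passed without replicate 3 of hemin-treated controls. *Mtap*, which cleaves methylthioadenosine, and *Mri1*, the isomerase of the next step, fell with hemin in those labelled KO (−0.90 and −0.52, adjusted p = 4.0e-04 and 0.0022) and in controls (−0.51 and −0.32, adjusted p = 0.016 and 0.032), and neither interaction passed (adjusted p = 0.23 and 0.44). In controls both missed the threshold without some of the libraries: *Mtap* without replicate 1 with vehicle or replicate 1 or 2 with hemin (adjusted p = 0.062, 0.057 and 0.054), and *Mri1* without replicate 2 or 3 with vehicle or replicate 1 or 3 with hemin (adjusted p = 0.072, 0.11, 0.096 and 0.071). Over the alternatives the adjusted p ran from 0.0023 to 0.062 and from 0.011 to 0.11. With 1 library left out, 0 to 1 of this list rose and 2 to 4 fell with hemin in controls, and 4 to 5 fell in those labelled KO. Between genotypes 0 to 1 were higher with vehicle and 1 to 3 with hemin. Rescaling to TPM gave 0 up and 3 down with hemin in controls, 0 and 5 with hemin in those labelled KO and 0 and 0 between genotypes with vehicle. With hemin in those labelled KO, TPM without *Gm23935* gave 0 and 7, and a fit of only the groups compared 1 and 6. Between genotypes under hemin TPM gave 0 and 1, as did TPM without *Gm23935* and a fit of only the groups compared.

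Of 7 genes that take cysteine sulfinate to taurine or pyruvate, or that carry taurine, 5 were tested. *Csad*, which follows *Cdo1* on the path to taurine, stood at 5.14, 4.51 and 4.75 FPKM with vehicle and 7.69, 8.48 and 7.62 FPKM with hemin in controls. *Csad* in libraries labelled KO stood at 14.6, 15.5 and 16.0 FPKM with vehicle and 6.83, 6.40 and 6.57 FPKM with hemin. The vehicle-treated libraries labelled KO were again above all others, and hemin moved the gene in opposite directions in the 2 genotypes. *Csad* rose with hemin in controls (log2 fold change 0.62, adjusted p = 1.8e-05) and fell in those labelled KO (−1.11, adjusted p = 1.4e-07), with an interaction of −1.73 (SE 0.09, adjusted p = 7.6e-07).

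*Slc6a6*, the taurine transporter, rose with hemin in controls (log2 fold change 1.07, adjusted p = 2.7e-07) and in those labelled KO (1.56, adjusted p = 8.0e-09). Its levels were 38.6, 44.9 and 43.0 FPKM with vehicle and 88.9, 94.0 and 86.1 FPKM with hemin in controls, and 28.6, 29.1 and 28.3 FPKM with vehicle and 84.7, 87.6 and 86.3 FPKM with hemin in those labelled KO. Over this list, 2 rose and 1 fell with hemin in controls, and 1 rose and 2 fell in those labelled KO (medians −0.13 and −0.02). Between genotypes, 1 was higher and 1 lower in those labelled KO under each treatment (medians 0.18 and −0.06), and for the interaction 2 were higher and 1 lower. *Got2*, the mitochondrial aspartate aminotransferase, fell with hemin in controls (−0.37, adjusted p = 0.0020) and in those labelled KO (−0.65, adjusted p = 2.3e-05). *Got1*, its cytosolic counterpart, ranged from 19.4 to 28.8 FPKM over the 12 libraries. With 1 library left out, 1 to 2 of this list fell with hemin in controls, 0 to 2 were higher and 0 to 2 lower in those labelled KO under hemin, and 1 to 2 were higher and 1 to 2 lower for the interaction. *Csad* missed the threshold between genotypes under hemin (−0.23, adjusted p = 0.018) without replicate 2 of hemin-treated controls or replicate 2 or 3 labelled KO with hemin (adjusted p = 0.052, 0.058 and 0.055, and 0.0065 to 0.41 over its alternatives). The counts of this list under TPM were 1 up and 0 down between genotypes with vehicle, 0 and 0 with hemin, and 0 and 1 for the interaction.

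All 13 other genes of persulfide, sulfite and methanethiol oxidation, their cofactors and ubiquinone synthesis were tested. With hemin 6 rose and 2 fell in controls, where 23.2% and 26.7% of all genes did. In colonoids labelled KO 5 rose and 2 fell, against 29.9% and 30.4% of all genes. The medians of the list were 0.22 and 0.06. Between genotypes, 1 was higher and 3 were lower in those labelled KO with vehicle, and 1 was higher and 4 were lower with hemin (medians −0.03 and −0.01). For the interaction 1 was higher and 1 lower. *Suox*, which oxidizes sulfite to sulfate, stood at 28.9, 35.2 and 33.0 FPKM with vehicle and 38.9, 38.0 and 35.4 FPKM with hemin in controls. *Suox* in libraries labelled KO stood at 4.34, 3.66 and 4.12 FPKM with vehicle and 15.7, 13.6 and 15.4 FPKM with hemin. Every library labelled KO was under every control, and *Suox* differed by −2.73 with vehicle (SE 0.09, adjusted p = 1.8e-09) and by −1.27 with hemin (adjusted p = 9.1e-07), with an interaction of 1.45 (adjusted p = 1.7e-05).

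*Selenbp1*, methanethiol oxidase, which itself releases sulfide, had the highest level of this list. It stood at 231, 258 and 273 FPKM with vehicle and 932, 884 and 693 FPKM with hemin in controls, and at 123, 109 and 118 FPKM with vehicle and 449, 348 and 391.8 FPKM with hemin in those labelled KO. It rose with hemin by a similar amount in controls and in those labelled KO (log2 fold changes 1.71 and 1.75, interaction 0.04 with adjusted p = 0.90) and was lower in those labelled KO under both treatments (−1.11 and −1.07). *Tst*, which lies head to head with *Mpst* at a distance of 509 bases, fell with hemin in controls (−0.67, adjusted p = 3.5e-04) and in those labelled KO (−0.44, adjusted p = 0.0042). *Coq7*, a hydroxylase of ubiquinone synthesis, fell in both as well (−0.54 and −1.04, adjusted p = 9.8e-05 and 4.3e-07). *Mocs2*, which serves in making the molybdenum cofactor of SUOX, rose in both (0.76 and 0.73, adjusted p = 2.3e-04 and 2.2e-04). With 1 library left out, 4 to 7 of this list rose and 2 to 3 fell with hemin in controls, 1 to 2 were higher in those labelled KO with vehicle, 0 to 2 were higher and 4 to 5 lower with hemin, and 1 to 2 were lower for the interaction. Under TPM 2 rose and 2 fell with hemin in controls and 3 rose and 2 fell in those labelled KO, so that more genes rising than falling in controls was not seen on that scale. Between genotypes TPM gave 0 up and 2 down with vehicle and 0 and 3 with hemin, and for the interaction 1 and 0. A fit of only the groups compared gave 4 up and 4 down between genotypes with vehicle, and 0 and 4 with hemin.

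**Figure D3:**
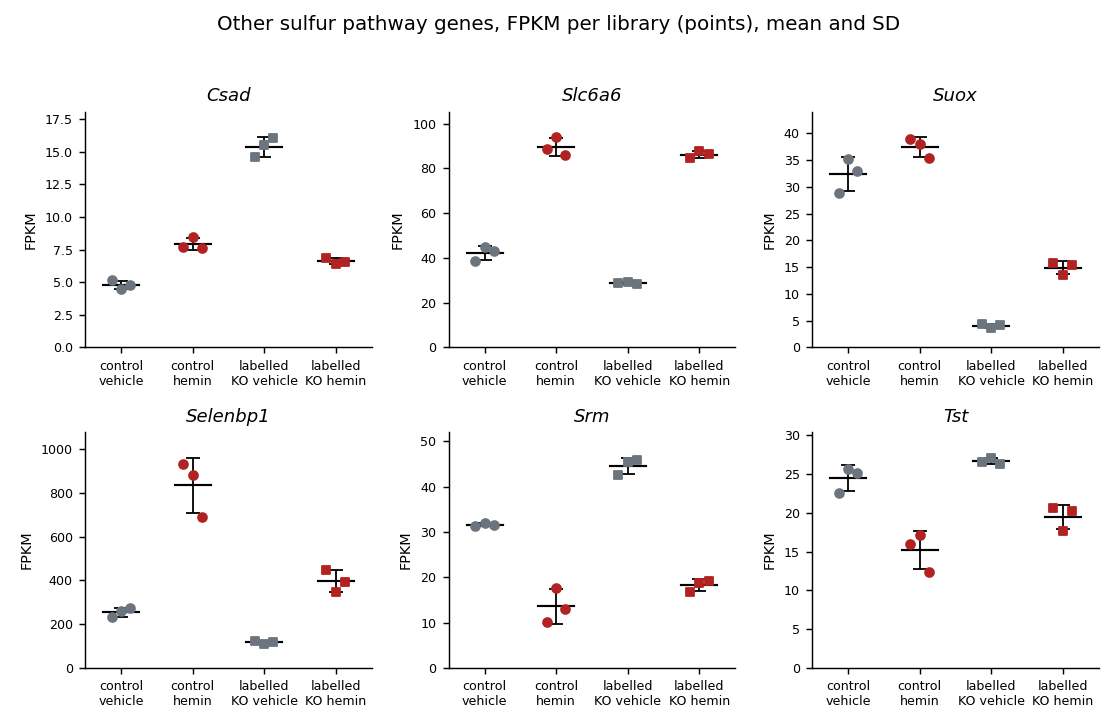
FPKM of *Csad*, *Slc6a6*, *Suox*, *Selenbp1*, *Srm* and *Tst* in each library (vertical axes, linear, from 0) for the 4 groups (horizontal axes), with symbols, means and SD bars (n = 3) as in the plot of the 8 genes. *Suox* is lowest with vehicle in colonoids labelled KO, and *Csad* is highest there.

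For the 4 genes called in any comparison, the genes nearest in pattern were found by the root mean square difference of log2(FPKM + 1), centred on each gene's mean over the 12 libraries. For *Cbs* they were *Smim24* (0.229) and *Fgfr4* (0.232), where the SD of *Cbs* itself over the libraries was 1.19. For *Cdo1* they were *Gm12551* (0.242) and *R3hdml* (0.263). For *Sqor* they were *Ildr1* (0.0781) and *Chp1* (0.105), and for *Ethe1* they were *Ank* (0.0895) and *Camk1* (0.116).

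Promoter windows from RefSeq on GRCm38.p6, from 250 bases before to 50 bases after a gene's start, were searched on both strands. There were 9 windows for 6 of the 8 genes, and none for the other 2, *Cth* among them. The letters searched were TGACNNNGC, the core of the antioxidant response element, present in 12.4% of 32851 promoters of this length, and TGATGNAA, the core of the amino acid response element bound by ATF4 with CEBP partners, present in 3.97%. *Sqor* held 1 match to TGATGNAA, on the reverse strand, where it reads TTTCATCA on the strand of the gene. Of the 3 windows of *Mpst*, 1 held a match to TGACNNNGC (TGACATGGC), and no other window of the 6 genes held either. A match is only a match of letters.

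The upstream bases of *Sqor*, which rose with hemin, and of *Cbs*, which fell in the same libraries, are given 5′ to 3′ on the strand of each gene, with the match in capitals. The *Sqor* stretch lies at chr2:122771463-122771712 on the plus strand, inside the deposited span of the gene and outside its annotated exons. The *Cbs* stretch lies at chr17:31637239-31637455 on the minus strand, stops before the annotated exons of the gene and holds no match.
Sqor: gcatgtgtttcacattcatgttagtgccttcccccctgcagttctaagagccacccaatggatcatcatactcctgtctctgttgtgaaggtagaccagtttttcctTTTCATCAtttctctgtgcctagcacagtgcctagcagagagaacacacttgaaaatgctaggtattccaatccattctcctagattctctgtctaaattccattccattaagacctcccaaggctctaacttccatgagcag
Cbs: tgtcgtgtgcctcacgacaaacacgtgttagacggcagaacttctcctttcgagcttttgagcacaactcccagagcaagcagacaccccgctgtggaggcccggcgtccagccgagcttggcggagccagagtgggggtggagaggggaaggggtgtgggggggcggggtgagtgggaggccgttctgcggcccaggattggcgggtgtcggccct
G and C made up 44.4% of the *Sqor* stretch and 65.4% of the *Cbs* stretch.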

How the data were processed

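The authors deposited FPKM for 54532 genes in 12 libraries, with gene coordinates and lengths. The submitters' processing notes name fastp, HISAT2 2.0.5, featureCounts 1.5.0-p3 and mm10. Strand setting and test are not given in the sources used here. The deposited FPKM already carry a median-of-ratios scaling: factors computed from the 14341 genes above 0 in all libraries were 1.009 in each library, while those of the fragments ran from 0.762 to 1.57. Values times gene length were read as multiples of the value of 1 fragment. This was checked on the lower values above 0, of which 100% in each library were whole multiples of 1 fragment (within 0.01). Fragments were recovered on that basis, with higher values rounded in the same way but not checked. A count of 3 fragments or fewer was taken as the floor.

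From there, R 4.3.3 and limma 3.58.1 were used on log2(FPKM + 1), with 1 mean per group, an intensity trend and no block, for 12740 genes with at least 1 FPKM in at least 3 libraries. This fit has 8 residual degrees of freedom, and p-values were adjusted by Benjamini-Hochberg over all genes tested. The comparisons were hemin against vehicle in each genotype, labelled KO against control under each treatment, and the interaction, the response of those labelled KO minus that of controls. The code was tested on simulated data. Python 3.11.15, pandas 2.3.3, scipy 1.17.1, matplotlib 3.10.9 and the data.table package, version 1.17.8, served for tables, intervals and plots.

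The 8 genes and the lists were chosen with earlier results of these data known. Named besides them are *Hmox1*, at most 4 genes per pathway list (the largest absolute log2 fold changes past an adjusted p of 0.05 in any comparison), neighbours or relatives of the 8 genes, and the 2 nearest patterns of each called gene. A gene of the methionine cycle list that this rule selects is not reported here. *Particl* and *Gm23935* were named after their values were seen, as were *Amd1* and *Odc1*, which this rule does not select. Results were recomputed without a filter, above a mean of 5 FPKM (inclusive), and with a pseudocount of 0.1. Further alternatives were TPM, median-of-ratios scaling, a replicate block, no trend, only the groups compared, limma-voom on fragments, and leaving out each library. A TPM whose sum omits *Gm23935* was chosen after seeing the data.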

Additional observations from a re-analysis of the deposited data

Results flagged for a closer look

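The response to hemin differed between the genotypes, by the interaction term in limma, for 4 of the 8 genes, 2 higher (13.3% of all genes tested) and 2 lower (10.5%). *Cdo1* fell by more in colonoids labelled KO than in controls (interaction −2.02, adjusted p = 2.4e-05). *Cbs* also fell by more there (−0.69, adjusted p = 0.025, from 0.0020 to 0.067 over its 19 alternatives, 8 of which missed the threshold, and −2.92 with limma-voom on fragments). *Sqor* rose by more in those labelled KO (0.61, adjusted p = 2.0e-04, but 0.47 with an adjusted p of 0.37 under TPM), and *Cth* fell in controls and not past the threshold in those labelled KO (0.49, adjusted p = 0.0044, but 0.37 with an adjusted p of 0.42 under TPM). For *Cdo1*, *Sqor* and *Cth* the genotypes already differed with vehicle, by 2.20, −1.09 and −0.63, and for *Cbs* that difference was 0.00 with overlapping libraries.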

How the results depend on the processing

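Median-of-ratios scaling is no separate alternative here, since the deposited values already carry it, and it is left out of the following totals. Of 635 log2 fold changes of the 8 genes under the other alternatives, 610 kept their side of the threshold, 13 fell short of it, 12 newly passed it and 0 reversed past it. *Cbs* accounts for 8 of the 13, all for the interaction. Of 1505 for the other named genes, 1359 kept their side, 133 fell short, 12 newly passed and 1 reversed: *Ahcyl1* with hemin in colonoids labelled KO, 0.32, was −0.017 under TPM (adjusted p = 0.96).

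Called genes numbered 2 in place of 1 for the genotypes under hemin and 2 in place of 1 for the interaction with a pseudocount of 0.1, TPM, TPM without *Gm23935* and limma-voom, and *Cbs* was the gene gained each time. Under TPM *Ahcy* was also called with hemin in those labelled KO (−1.08, adjusted p = 5.3e-04), and *Sqor* was no longer called between genotypes with vehicle (−0.95, adjusted p = 0.0019). A mean FPKM of at least 5 removed *Cbs* from the fit and left 1 of 7 called with hemin in controls. Under TPM, 2 in place of 4 passed for the genotypes under hemin and 2 in place of 4 for the interaction. With *Gm23935* left out of the sum, chosen after seeing the data, 8 in place of 4 passed with hemin in those labelled KO. The cause was not tested.

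TPM moved the median of all genes to −0.19 and −0.31 for hemin in controls and those labelled KO, to 0.16 for the genotypes with vehicle and to −0.11 for the interaction. The share of higher genes among those past the threshold went from 46.4% to 21.4%, from 49.6% to 20.2%, from 50.9% to 64.9% and from 55.9% to 34.3% in these comparisons. With *Gm23935* left out it was 35.2%, 32.1%, 59.8% and 38.7%.

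Over all genes, called genes with hemin in controls went from 1033 to 1760 with a pseudocount of 0.1, 629 with a mean FPKM of at least 5, 1705 under TPM, 1606 without *Gm23935* and 1830 under limma-voom. With hemin in those labelled KO they went from 1648 to 1043, 2737 (TPM), 2475 (without *Gm23935*) and 2605 (limma-voom). Between genotypes with vehicle they went from 866 to 392 and 1304, with hemin from 766 to 1342 (pseudocount), 422 and 1399, and for the interaction from 654 to 334. Genes past the threshold went, with a mean FPKM of at least 5, from 6359 to 4235, 7694 to 5114, 4362 to 2690, 4383 to 2765 and 3031 to 1956 in the 5 comparisons. Under TPM they were 4000 with hemin in controls, 2269 and 2109 for the genotypes with vehicle and hemin, and 909 for the interaction. With only the groups compared 2728 passed for the genotypes under hemin, and 4726 passed for the interaction without replicate 3 of hemin-treated controls.

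With the replicate block, 5, 4, 5, 4 and 4 genes passed in the 5 comparisons, the counts of the fit without it. Libraries of different groups with the same number had a mean correlation of −0.04 in their deviations (−0.33 to 0.18, n = 18 pairs). Those with different numbers had a mean of 0.02 (−0.39 to 0.34, n = 36 pairs). Pairing by number was thus not seen in these correlations, which cannot exclude one that the sources do not state. Depth limits *Cbs* with hemin, at 3 to 37 fragments per library.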
